A study of Gossypium hirsutum with 51 samples.

Results

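TUB1 and TUB2 are 2 spots listed under tubulin-like names among the 11706 rows of a cDNA array table of upland cotton (Gossypium hirsutum) ovules, and they were chosen by these row names. Both had a value on all 51 arrays. A further 9 spots carry gene-like names, 13 rows are controls and 11682 are cDNA clones without gene names. The sources used here give no sequence for either spot and do not say which tubulin gene it represents. RefSeq's table for the assembly Gossypium_hirsutum_v2.1 gives TUB1 as a synonym of the gene LOC107926975 on chromosome A08, but nothing ties the spot to that gene, and signal from tubulin genes of near-identical sequence cannot be told apart on either spot.

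Tubulins are the alpha and beta proteins that pair and assemble into microtubules. In plant gene names TUB usually stands for a beta-tubulin. Cotton fibres are single cells that grow out from the surface of the ovule, elongate and then lay down a thick cellulose wall. The microtubules beneath their plasma membrane guide the direction in which cellulose is deposited. Plants carry several beta-tubulin genes whose transcripts differ in tissue and stage.

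The arrays held ovule RNA of wild type at ages -3, 0, +5, +10, +15 or +20 days post anthesis (the day of flowering is 0), each against wild type of age +3, and wild type against the fl mutant at +3 and at +10. The fl mutant is known as fuzzless and lintless, that is, without fibres. The labels give no cultivar and no genetic background of the mutant. For each of the 8 comparisons 3 forward arrays were paired with their dye swaps into sets, and 3 more arrays had +3 wild-type RNA under both dyes. The deposited values are log2 ratios. The 2 arrays of a set were averaged, so n is the number of sets, and errors are SD over sets. At +5 and +10 n was 2, because 1 array is deposited under both ages with 19 of 19 equal values in the rows other than clones, and it was left out of both. Every ratio was turned to age over +3 or wild type over fl, and its direction is called likely and not settled, because the table does not state it. The basis is the HEX control spot, which lay between -11.7 and -7.16 on 23 forward arrays, -9.20 to -8.20 at wild type against fl at +3 among them, and between 5.83 and 12.1 on 23 swaps. HEX is assumed to be seen in the Cy3 channel, and the first RNA of the label to have carried Cy5 on forward arrays. The named spots are then the first RNA divided by the second, and the swaps were turned before deposition. If only 1 of these 2 assumptions holds, every sign below is the opposite.

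As deposited, TUB1 was lower before and on the day of flowering than at +3 and higher at each later age, with its highest mean at +10. On the same scale TUB2 was called changed at +5 and +10, where it was higher, and at no other age. With the median of all named spots, the tubulins included, subtracted on each array, the TUB2 calls and the age of the highest TUB1 mean differ. They are given with those values. In ovule RNA, a change in the number of fibre cells and a change in RNA per cell cannot be told apart.

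At -3, TUB1 read -1.60, -1.77 and -1.83 in the 3 sets, a level 3.33-fold lower than at +3 (-1.74 ± 0.12, SD, n = 3; limma adjusted p = 1.50e-11). All 3 sets and all 6 arrays lay below 0. TUB2 read -0.18, 0.12 and -0.57, with sets on both sides of 0. Its mean of -0.21 ± 0.34 (SD, n = 3; 95% interval -0.56 to 0.14; limma adjusted p = 0.326) was not called. Of the 2 spots 1 was called here, and 45.1% of all rows tested were.

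On flowering day, TUB1 was at -0.70, -0.77 and -0.69, or 1.65-fold below +3 (-0.72 ± 0.05, SD, n = 3; limma adjusted p = 1.23e-05), while 28.6% of rows were called. The sets were closer together than in any other comparison. TUB2 was at 0.19, 0.19 and 0.10, above 0 on all 6 arrays, yet its mean of 0.16 ± 0.05 (SD, n = 3; limma adjusted p = 0.519) was not called, with an interval from -0.19 to 0.51. The limma test uses 1 spread per spot from all comparisons, and for TUB2 that spread is wider than at this age. In a fit of this comparison alone the adjusted p was 0.0269.

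At +5, TUB1 was at 1.45 and 1.06, a rise of 2.38-fold (1.25 ± 0.27, SD, n = 2; limma adjusted p = 1.04e-07). TUB2 was at 0.70 and 0.43, a rise of 1.48-fold (0.56 ± 0.19, SD, n = 2; limma adjusted p = 0.0268). Both spots were called, and so were 56.0% of rows. With 1 of its sets left out, TUB2 was not called, at 0.43 without set 1 and at 0.70 without set 2 (limma adjusted p = 0.209 and 0.131), where the lone set was assumed to vary like the other comparisons.

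TUB1 reached its highest mean at +10, with sets at 1.72 and 1.99 and a 3.62-fold rise over +3 (1.86 ± 0.19, SD, n = 2; limma adjusted p = 6.18e-10). TUB2 was at 0.65 and 0.76, 1.63-fold above +3 (0.70 ± 0.08, SD, n = 2; limma adjusted p = 0.00665). Both were called against 59.1% of rows. The array deposited under both ages read 1.39 for TUB1 and 0.39 for TUB2. Keeping it in both comparisons left both spots called at +5 and at +10.

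At +15, TUB1 stood at 0.63, 1.03 and 0.88, 1.80-fold above +3 (0.85 ± 0.20, SD, n = 3; limma adjusted p = 3.14e-07), with 68.0% of rows called. TUB2 was spread from -0.16 in set 1 through 0.47 in set 2 to 0.66 in set 3 (0.32 ± 0.43, SD, n = 3; limma adjusted p = 0.0984). Without set 1 its mean was 0.57 and was called (limma adjusted p = 0.0169).

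At +20, TUB1 was at 1.71, 1.50 and 1.27, 2.81-fold above +3 (1.49 ± 0.22, SD, n = 3; limma adjusted p = 8.41e-11), with 69.3% of rows called. TUB2 was at 0.59, 0.18 and -0.03 (0.25 ± 0.32, SD, n = 3; limma adjusted p = 0.202). Without set 3 its mean of 0.38 was called (limma adjusted p = 0.0348). Over the 6 ages together, limma's F test called TUB1 (F = 162, adjusted p = 4.14e-14) and TUB2 (F = 4.49, adjusted p = 0.00591), as it did 90.7% of rows. Without set 2 of each comparison TUB2 was not called (F = 2.98, limma adjusted p = 0.0584).

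**Figure D1:**
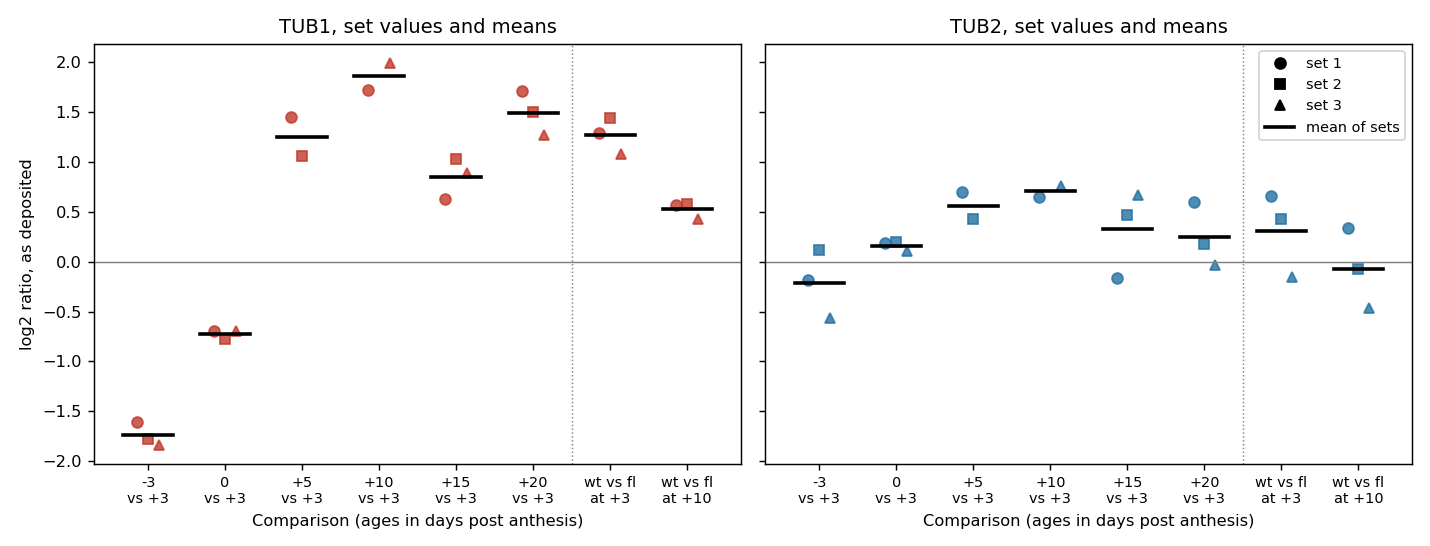
Log2 ratios of TUB1 (left) and TUB2 (right) as deposited, by comparison, with a symbol for each set (forward and swapped array averaged) and a bar for the mean. TUB1 runs from a mean of -1.74 at -3 to 1.86 at +10 with a lower mean of 0.85 at +15, while the TUB2 means lie between -0.21 and 0.70.

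The TUB1 means increased in the order -3, 0, +3, +15, +5, +20 and +10. Ages other than +3 were compared through wild type at +3, which stood in both terms. No label says whether it was the same RNA, and the test took the sets of both terms as independent. TUB1 rose between -3 and 0 by 1.02 ± 0.14 (SE; limma adjusted p = 4.36e-05), when 19.2% of rows changed. It fell from +10 to +15 by 1.01 ± 0.16 on the log2 scale (SE; limma adjusted p = 7.34e-05), when 30.9% of rows changed. TUB1 rose again from +15 to +20, by 0.64 ± 0.14 (SE; limma adjusted p = 0.00678), when 7.96% of rows changed. That last call was lost without set 1 (0.43, limma adjusted p = 0.219). From +5 to +10 it rose by 0.60 ± 0.17 (SE; limma adjusted p = 0.0449; 6.10% of rows), but the call was lost on leaving out any set, with values from 0.41 to 0.93, and on keeping the shared array in both comparisons (0.46, limma adjusted p = 0.0581). The neighbours +15 and +5 differed by 0.40, +5 and +20 by 0.24 and +20 and +10 by 0.36, none of them called (limma adjusted p = 0.0533, 0.272 and 0.108), where 35.5%, 29.9% and 22.6% of rows were. The first of them was called in 5 of 13 alternatives, among them 0.48 when the shared array stayed in both ages (limma adjusted p = 0.0106) and 0.69 without set 2 (limma adjusted p = 0.0412).

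For TUB2 the order was -3, +3, 0, +20, +15, +5 and +10, and no neighbours in it were called in the fit of all comparisons. The fit of 1 comparison alone called 0 against +3, as given above. From 0 to +20 the means differed by 0.09 and from +15 to +5 by 0.24 (limma adjusted p = 0.767 and 0.521; 66.9% and 35.5% of rows were called). The adjacent ages were not called either, with 0.37 from -3 to 0, 0.14 from +5 to +10, -0.38 from +10 to +15 and -0.08 from +15 to +20 (limma adjusted p = 0.307, 0.833, 0.2995 and 0.905).

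At both ages the TUB1 level of wild type exceeded that of fl. At +3 its sets read 1.29, 1.44 and 1.08, or 2.41-fold (1.27 ± 0.18, SD, n = 3; limma adjusted p = 2.24e-09), with 44.3% of rows called. At +10 they read 0.57, 0.57 and 0.43, or 1.44-fold (0.52 ± 0.08, SD, n = 3; limma adjusted p = 0.000128), with 66.1% of rows called. The 3 sets at +3 all lay above the 3 at +10.

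TUB2 did not pass the test between the genotypes as deposited. It read 0.66, 0.43 and -0.15 at +3 (0.31 ± 0.42, SD, n = 3; limma adjusted p = 0.142) and 0.33, -0.08 and -0.46 at +10 (-0.07 ± 0.40, SD, n = 3; limma adjusted p = 0.729). Sets lay on both sides of 0 at either age. Without set 3 the mean at +3 was 0.54 and was called (limma adjusted p = 0.0101). In this comparison at +3 an earlier analysis of these data found the clones to carry the opposite sign to the other comparisons. That clone sign is not settled, while HEX gives the named spots the usual one. If the named spots were turned too, TUB1 would be at -1.27 and TUB2 at -0.31 there.

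All named spots are on an unnormalised scale, so an offset of the array enters each value. With the median of the 11 named spots subtracted on each array, TUB1 kept its direction and its call in all 8 comparisons. Its means became -1.30 at -3, -0.61 at 0, 1.12 at +5, 1.41 at +10, 0.72 at +15 and 1.57 at +20, so the highest mean moved to +20. The difference between wild type and fl became 0.53 at +3 and 0.47 at +10 (limma adjusted p = 0.000514 and 0.000836), against 1.27 and 0.52 as deposited. Of the 11 named spots 8 were higher in wild type at +3 as deposited, none was lower, and the array medians ran from 0.46 to 1.03.

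The fall of the TUB1 genotype difference from +3 to +10, called at -0.75 ± 0.14 (SE; limma adjusted p = 0.000303; 45.0% of rows) as deposited, was -0.066 after the subtraction (limma adjusted p = 0.747). The change of fl itself from +3 to +10, derived from 3 comparisons because no array measured it, was 2.60 ± 0.19 for TUB1 as deposited (SE; limma adjusted p = 2.88e-09; 36.1% of rows) and 1.47 after the subtraction (limma adjusted p = 1.44e-05). For TUB2 it was 1.09 ± 0.32 (SE; limma adjusted p = 0.0113) and then -0.044 (limma adjusted p = 0.861). With the named spots turned at +3, the TUB1 genotype difference would rise from +3 to +10 by 1.80 (limma adjusted p = 1.11e-08). The change of fl would then be 0.060 for TUB1 and 0.46 for TUB2, neither called (limma adjusted p = 0.8296 and 0.272). The shares of rows in this paragraph and the adjustment of its p values rest on clone signs that were reversed at +3. A fit without that reversal was not run.

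TUB2 changed direction with the scale in 2 of the 8 comparisons. After the subtraction its mean at -3 turned from -0.21 to 0.23 (limma adjusted p = 0.0422), and its mean for wild type against fl at +3 turned from 0.31 to -0.43, lower in wild type in all 3 sets at -0.15, -0.44 and -0.69 (limma adjusted p = 0.000698). TUB2 was then above +3 at each of the 6 other ages, with means from 0.20 to 0.43, and was called at -3, 0, +5 and +20. At +10 and +15 it was not called, at 0.26 and 0.20 (limma adjusted p = 0.0517 and 0.0590). Minus the median of the 9 others instead, TUB2 was called at +10 and +15, at 0.48 and 0.36 (limma adjusted p = 0.00213 and 0.00306). Its calls at 0, +5 and +20 stayed, and -3 was not called (0.23, limma adjusted p = 0.0674). With the clone median of each array subtracted instead, done at -3 only, TUB2 kept its deposited sign at -0.17 (limma adjusted p = 0.392). TUB1 was at -1.70 on that scale. Of the 11 named spots 5 were called lower at -3 as deposited and none higher, so their median there depends on spots that changed.

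**Figure D2:**
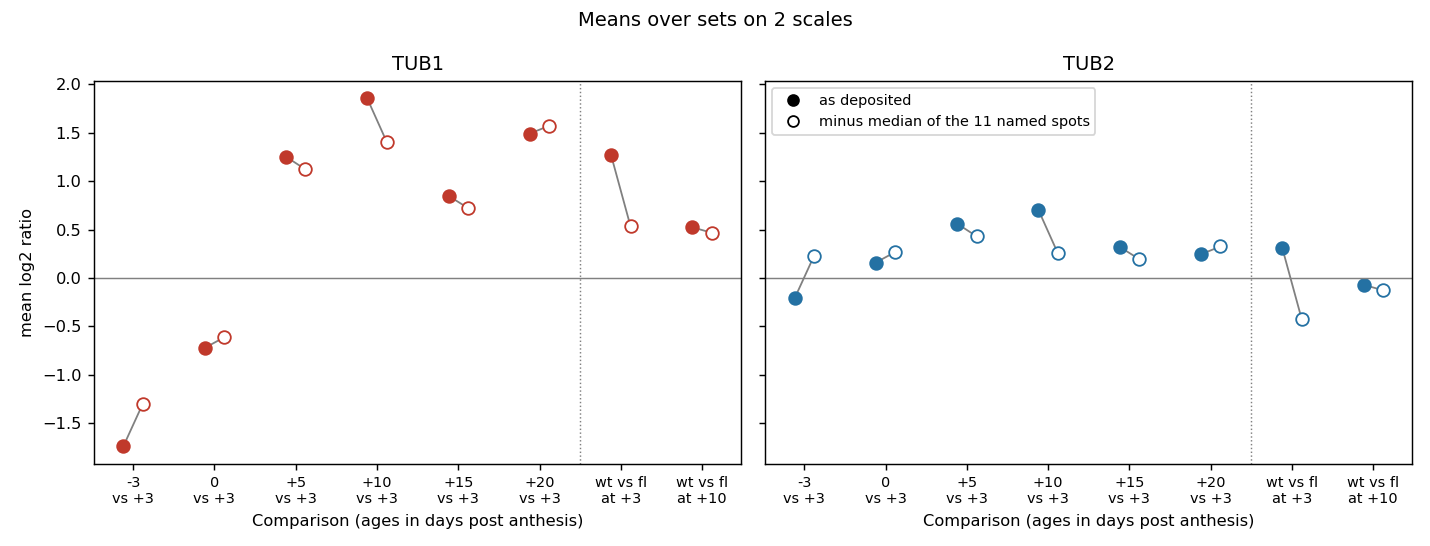
Mean log2 ratio over sets of TUB1 (left) and TUB2 (right) in each comparison, as deposited (filled) and minus the median of the 11 named spots of each array (open), joined by a line. TUB1 keeps its sign throughout, while TUB2 changes sign at -3 (-0.21 to 0.23) and for wild type against fl at +3 (0.31 to -0.43).

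The spread between sets also differed between the spots. Within comparisons, the SD over the 22 sets was 0.17 for TUB1 and 0.33 for TUB2 as deposited, and 0.19 and 0.14 after the subtraction. The deviations of the sets from their comparison means correlated with those of the median of the 9 other named spots at a Pearson r of 0.57 for TUB1 and 0.88 for TUB2. These are descriptions over 22 sets, in which the points of a set come from the same arrays. TUB2 itself was the median spot on 3 of 46 arrays.

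The change of TUB1 relative to that of TUB2 is free of an offset common to all spots of an array, since both spots lie on each array. An offset that differs between the 2 spots does not cancel. TUB1 minus TUB2 was below 0 at -3 and 0, and above 0 in the 6 other comparisons, in every set. At -3 it was -1.53 ± 0.32 and at 0 it was -0.88 ± 0.08 (SD, n = 3 each). It was 0.69 ± 0.08 at +5 and 1.15 ± 0.11 at +10 (SD, n = 2 each). The difference was 0.53 ± 0.29 at +15 and 1.25 ± 0.11 at +20 (SD, n = 3 each). It was 0.96 ± 0.31 for wild type against fl at +3 and 0.59 ± 0.33 at +10 (SD, n = 3 each). Limma's test of this difference, adjusted over the 8 comparisons, called all 8, with adjusted p from 2.03e-09 at -3 to 0.000719 at +15. Over sets alone, the exact sign-flip permutation test (two-sided) gave the smallest p it can, 0.25 with 3 sets and 0.5 with 2.

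**Figure D3:**
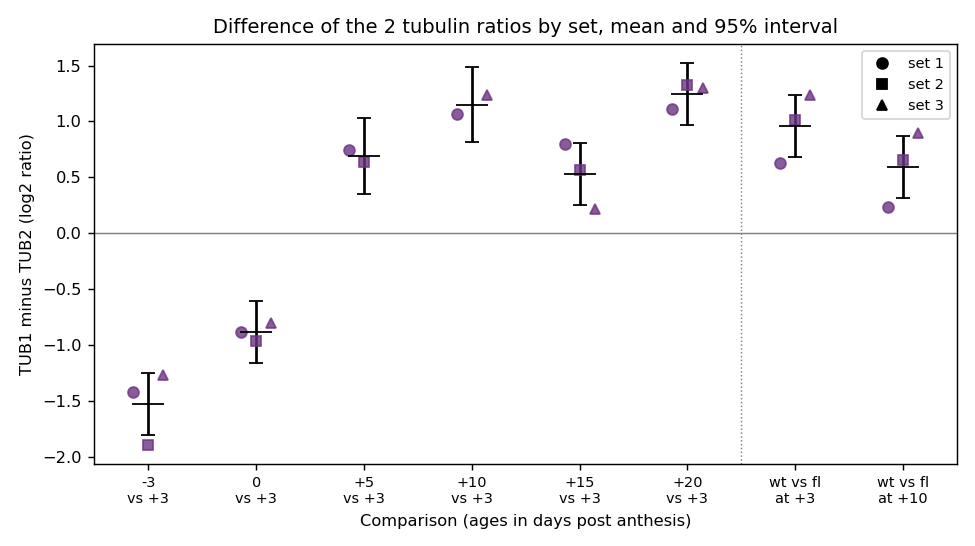
TUB1 minus TUB2 (difference of log2 ratios on the same arrays) by comparison, with a symbol for each set, a horizontal bar for the mean and whiskers for limma's 95% interval. The sets lie below 0 at -3 and 0 and above 0 in the other 6 comparisons, and no interval reaches 0.

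The difference between the tubulins itself changed with age. It rose by 0.64 from -3 to 0, fell by 0.62 from +10 to +15 and rose by 0.72 from +15 to +20 (limma adjusted p = 0.00642, 0.0146 and 0.00334 over 10 contrasts). The first and the last of these calls were lost without set 2 (0.50 and 0.70, limma adjusted p = 0.136 and 0.0544). The fall after +10 was lost without set 2 or set 3 (-0.64 and -0.39, limma adjusted p = 0.0618 and 0.153). From +5 to +10 it did not pass (0.46, limma adjusted p = 0.0813). The genotype difference of TUB1 relative to TUB2 changed from +3 to +10 by -0.37, with an interval from -0.76 to 0.03 (limma adjusted p = 0.0813). With the named spots turned at +3 it was 1.55 and was called (limma adjusted p = 3.16e-07).

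The dye swaps repeated the TUB1 sign. In 22 of 22 sets the forward and the swapped array of TUB1 had the same sign, while those of TUB2 had opposite signs in 4 of 22. The widest gap for TUB1 was in set 2 at +5, with 1.72 on the forward and 0.40 on the swapped array. For TUB2 it was in set 2 at -3, with 0.67 and -0.44. The dye effect, taken as the forward minus the swapped value over 2 in the orientation of the labels, had a median of -0.05 for TUB1 (-0.49 to 0.66) and -0.001 for TUB2 (-0.56 to 0.35).

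On the 3 self-to-self arrays, where both channels held +3 wild-type RNA, TUB1 read -0.33, -0.12 and -0.56 and TUB2 -0.23, 0.10 and -0.26 as deposited. TUB1 minus TUB2 was -0.11, -0.22 and -0.29 on them. HEX had the opposite sign on the array of set 2, which would turn the values of that array to 0.12 and -0.10 and their difference to 0.22. These arrays have no swap, so a dye effect is not averaged out of them. Among the sets of the comparisons, each a mean of 2 arrays, TUB1 minus TUB2 was smallest in size at +15 (0.22, set 3). The next smallest was for wild type against fl at +10 (0.23, set 1). On single arrays, as the self-to-self values are, it went down to 0.11 at +15 (set 3, forward). It was 0.22 and 0.25 for wild type against fl at +10 (set 1), and 0.26 at +5 (set 2, swapped). These single values lie within the range of sizes on the self-to-self arrays. In the comparisons, TUB1 exceeded 0.56 in size on every array used except at +5 and at wild type against fl at +10. At +5 the swapped array of set 2 read 0.40. For wild type against fl at +10 most arrays lay below 0.56, at 0.08, 0.39, 0.43 and 0.47, and the others read 0.72 and 1.06.

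**Figure D4:**
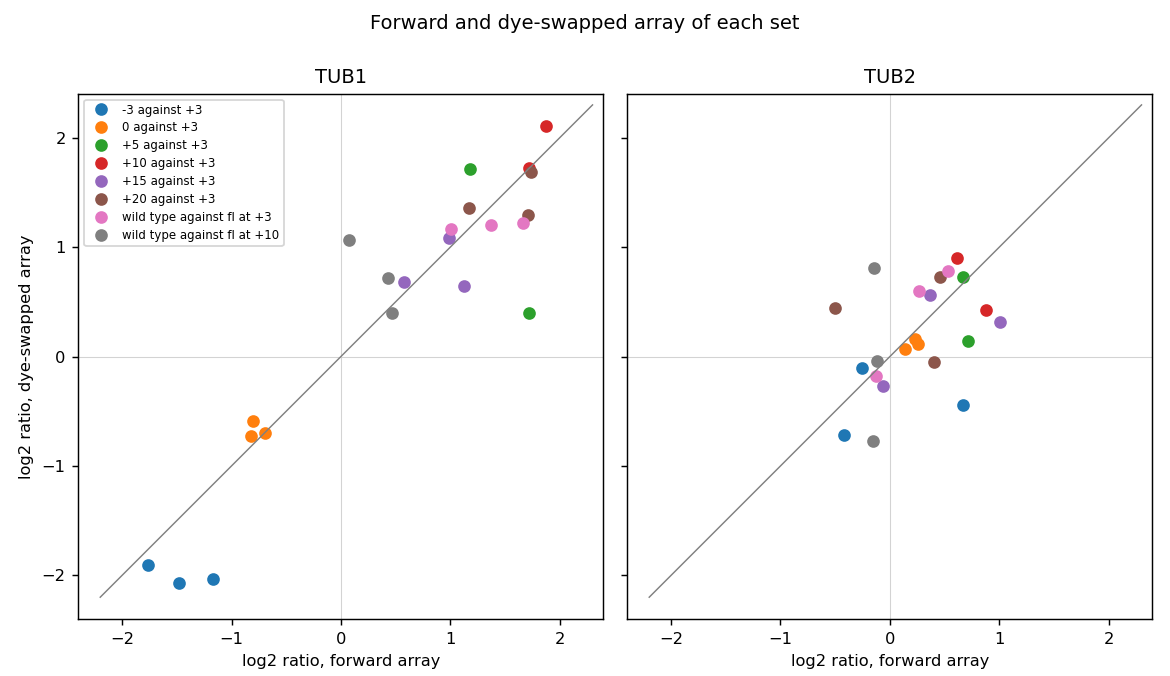
Log2 ratio of the swapped array against that of the forward array for each of the 22 sets, TUB1 left and TUB2 right, coloured by comparison, with the line of equal values. The TUB1 points lie in the quadrants of equal sign, and 4 TUB2 points do not.

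The cytoskeleton was also represented by the spots ACT1 and ACT2, named like actins, which form the filaments of the other main cytoskeletal system. ACT1 was lower than +3 at -3 (-1.85 ± 0.07, SD, n = 2) and at 0 (-1.29 ± 0.02, SD, n = 3), as TUB1 was. After +10 they parted: ACT1 was called below +3 at +15 (-0.38 ± 0.29, SD, n = 3; limma adjusted p = 0.0296), while TUB1 stayed above it. ACT2 was called at none of -3 and 0, and was higher than +3 at +5, +10, +15 and +20, with means from 0.51 to 1.00. In these 8 comparisons ACT1 was called in 7 and ACT2 in 5, against 8 for TUB1 and 2 for TUB2. Of all rows tested, between 28.6% (at 0) and 69.3% (at +20) were called in a comparison.

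Among the 11 named spots TUB1 had the highest mean at +5, +10, +15 and +20, rank 10 at -3, rank 9 at 0 and rank 3 in both genotype comparisons. TUB2 ranked 1 at 0 and 3 at -3, and between 4 and 5 at the later ages. At wild type against fl it ranked 10 at +3 and 8 at +10. These ranks are of changes and not of levels, and hold for the likely direction of the ratios. With the named spots turned at wild type against fl at +3, TUB1 would rank 9 and TUB2 would rank 2 there.

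**Figure D5:**
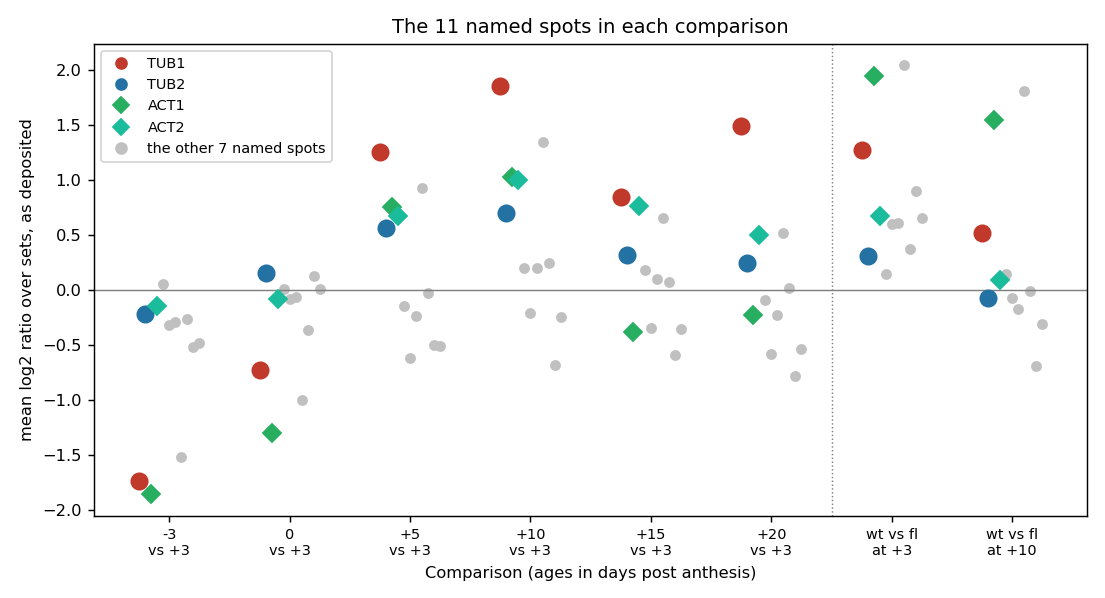
Mean log2 ratio over sets of the 11 named spots in each comparison, as deposited, with the 2 tubulins and the 2 actins coloured and the other 7 in grey. TUB1 is the highest spot at +5, +10, +15 and +20, and SDH is the highest in both genotype comparisons in the deposited sign (2.04 at +3, the lowest at -2.04 if turned there).

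By the root mean square difference of the means over 7 comparisons (the 6 ages and wild type against fl at +10), the named spot most like TUB1 was SDH at 0.67 (Pearson r = 0.84), then ACT2 at 0.86 (r = 0.88) and ACT1 at 0.98 (r = 0.76). TUB2 had rank 4, at 1.01 (r = 0.80). The spot most like TUB2 was ACT2 at 0.26 (r = 0.89), then UQCR at 0.37 and ATP1 at 0.38, and TUB1 had rank 8. Among 8488 clones tested in all 7 comparisons, CM042H03 was the nearest to TUB1 at 0.33 (r = 0.96), followed by CM019E12 at 0.40 and CM027B04 at 0.45. At +10, +15 and +20 CM042H03 was at 1.53, 0.78 and 1.64, and CM019E12 at 1.17, 0.88 and 1.16. CM027B04 was at 1.31, 1.30 and 1.18, without the lower mean at +15. The clones were picked by these same means, so a shared lower mean at +15 is not a separate result. The nearest to TUB2 were CM004G07 at 0.09 (r = 0.95), CM073H02 at 0.12 and CM032H11 at 0.13. These are descriptions over 7 comparisons, of which 6 were made against wild type at +3. Most clone values were normalised while the named spots were not, and the sources used here do not pair the clones with genes.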

How the data were processed

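The authors deposited 1 table of log2 ratios of 2-colour cDNA arrays. Scale and steps were read from the values: on all 51 arrays the named spots and controls are unnormalised, and clone rows were normalised on 41 arrays, and how is not given in the sources used here. Without spot brightness, dim spots could not be filtered, and precision is limited by the array number. Exact zeros were taken as missing. The design text calls the samples biologically independent, and a set was 1 replicate. For the genotypes at +3 the clone signs were reversed.

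All named spots and clones (11 and 11682 rows) were fitted together with limma 3.58.1 in R 4.3.3 (group means, eBayes, Benjamini-Hochberg over all rows tested in a contrast, threshold 0.05), where at least 2 sets had both arrays. Prior degrees of freedom were 6.12 and the prior SD 0.184. TUB1 minus TUB2 entered as an added row and was adjusted over 8 comparisons or 10 contrasts. The fit was tested on simulated data. Other named spots were named by likeness or as actins, and the 3 nearest clones of each tubulin by profile. The members and lists were chosen with earlier results of these data known, and 4 contrasts of ages next to each other in level after the levels were seen. Alternatives covered the scale, the shared array, the sets, the block, the variance model and zeros.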

Additional observations from a re-analysis of the deposited data

Results flagged for a closer look

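TUB2 at +5 against +3 read 0.14 on the swapped array of set 2, far from the other 4 arrays, which lay between 0.67 and 0.79. TUB1 minus TUB2 at +10 against +3 read 0.84 on the forward array of set 1, where the other 4 arrays lay between 1.20 and 1.30. Among 24 groups of 5 or 6 arrays these 2 had such an array, and chance gives about 1 in 20.

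The genotype difference of TUB1 differed between the ages in limma's contrast, by -0.75 at +10 relative to +3 (limma adjusted p = 0.000303), and all 3 sets at +3 lay above the 3 at +10. Minus the median of the 11 named spots it was -0.066 (limma adjusted p = 0.747), and the array medians ran from 0.46 to 1.03 at +3 and from -0.21 to 0.81 at +10. With the named spots turned at +3, where their sign is not settled, it was 1.80 (limma adjusted p = 1.11e-08), and the sets at +3 would lie below those at +10. The part of the array offset in this difference was not tested.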

How the results depend on the processing

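Over 57 results and 16 alternatives, 672 of 740 values kept their direction and side of the threshold. TUB1 in the 8 comparisons did so in every alternative except the turned sign at wild type against fl at +3, and so did TUB1 minus TUB2. The cause of the other changes was not tested. With the named spots turned there, TUB1, TUB2 and their difference were -1.27, -0.31 and -0.96. Their genotype changes with age were then 1.80, 0.24 and 1.55, and the changes of fl were 0.060, 0.46 and -0.40. Minus the median of the 11 named spots, TUB1 was -0.17 for +10 minus +20, 0.28 for +10 minus +5 and -0.066 for the genotype change. TUB2 was then 0.23 at -3, 0.27 at 0, 0.26 at +10, 0.33 at +20, -0.43 for wild type against fl at +3, 0.30 for its genotype change, -0.044 for fl, -0.18 for +10 minus +5, 0.13 for +20 minus +15 and -0.071 for +10 minus +20. Minus the median of the 9 others, TUB1 was -0.017, 0.20 and -0.050 for the same 3 contrasts, and TUB2 was 0.23 at -3, 0.27 at 0, 0.36 at +15, 0.40 at +20, -0.43 for wild type against fl at +3, 0.32 for the genotype change, 0.16 for fl, -0.25 for +10 minus +5 and 0.039 for +20 minus +15.

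Leaving out 1 set number in all comparisons, TUB2 ranged from 0.43 to 0.70 at +5, 0.15 to 0.57 at +15, 0.072 to 0.38 at +20, 0.14 to 0.54 and -0.27 to 0.13 for wild type against fl at +3 and +10, and 1.02 to 1.17 for fl. It ranged from -0.49 to 0.23 for +20 minus +15, -0.14 to 0.45 for +5 minus +15 and -0.076 to 0.20 for +20 minus 0, with F from 2.98 to 5.41. TUB1 ranged from 0.41 to 0.93 for +10 minus +5, 0.43 to 0.77 for +20 minus +15 and 0.10 to 0.69 for +5 minus +15. The difference ranged from 0.50 to 0.73 for 0 minus -3, -0.84 to -0.39 for +15 minus +10, 0.54 to 0.92 for +20 minus +15 and 0.46 to 0.68 for +20 minus +5. With exact zeros kept, TUB1 for +10 minus +5 was 0.60 (limma adjusted p = 0.0552), and with the shared array at +5 only or in both it was 0.53 and 0.46, while TUB1 for +5 minus +15 was called at 0.48 in each (limma adjusted p = 0.0111 and 0.0106). That contrast was also called minus the 9 others (0.54) and with single arrays (0.46). Fitted alone, TUB2 at 0 was called at 0.16. With single arrays and the set as a random block, calls were also gained for TUB2 at +15 (0.32) and for the difference at +10 minus +5 (0.45) and in its genotype change (-0.37). The consensus correlation of the dye-swapped arrays in that fit was -0.16, and a negative value makes the standard errors of the means smaller.

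Set numbers are shared between comparisons, and no label says that they mark shared material. Of 70 same-numbered pairs of sets 18 correlated above 0.1 (median r 0.038), against 11 of 141 differently numbered pairs (median r -0.025), and 13 of 22 sets correlated best with their own number. Since not every same-numbered pair passed 0.1, the main fit did not treat the sets as paired. That rule cannot decide whether they are, because some same-numbered pairs come from comparisons that share no RNA by their labels. Such pairs need not correlate even if the set number marks shared material. A larger share of the same-numbered than of the differently numbered pairs passed 0.1. Whether sets of the same number are independent was not tested. With the set number as a replicate block, 1 call was lost, TUB2 at +5 (0.48, limma adjusted p = 0.0519).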
